A study of Arabidopsis thaliana with 30 samples.

Results

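Seedlings of the Arabidopsis thaliana mutant Δlinda given UV-C were compared with Δlinda seedlings left in normal light, with 4 libraries in each group. The comparison covers every gene of the deposited count table that had enough reads to be tested, 20869 of 68575 identifiers. These 8 libraries belong to 30, which cover the wild type Col-0 and Δlinda after UV-C, in normal light, in the DNA-breaking drug Zeocin and in a mock medium. LINDA is a long noncoding RNA, and all the seedlings compared, controls included, carry the mutation. RNA came from whole seedlings that were 14 days old and had grown on MS agar plates with 10 h of light a day. The irradiated seedlings received 2 kJ of UV-C, with no area given. Both groups were harvested 3 h after treatment according to the protocol, but the titles of the normal light libraries name no time, so UV-C and any difference in the hour of harvest cannot be told apart. The sources used here do not give how the mutation was made, how many lines carry it or how many plants went into a library.

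UV-C is absorbed by DNA, where it joins neighbouring pyrimidines into dimers that block RNA and DNA polymerases. Plants reverse these dimers with photolyases, which need light, or cut them out by nucleotide excision repair, and the transcription factor SOG1, activated by the kinases ATM and ATR, switches on repair and cell cycle genes. UV-C also harms RNA, proteins and organelles, and the signals that leave mitochondria, the endoplasmic reticulum and damaged membranes meet the pathways of defence hormones.

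The libraries held 13.03 to 14.16 M restored counts (M, 1e6), except normal light replicate 1 with 7.83 M. Spearman correlations over 15157 genes were 0.958 to 0.984 between libraries of the same group and 0.583 to 0.648 between the groups. The labels do not say that replicates came from separate cultures, so the p-values measure the spread between these libraries, which may be technical. Levels are given as CPM, counts per 1e6 counts after scaling, and a fold is relative to the other transcripts of the library. Genes whose estimates were not whole share reads with a copy or a neighbour and are uncertain on their own. Among the genes named, reads were shared in at least 4 of the 8 libraries for WRKY53, SARD1, EDS5, TCH3, GSTF6, CAT3, LOL1, GUN4, ARR6, GASA6, SAUR68 and ICE1. This list is not complete, since RPL10C and others are marked only where they are described. In whole seedlings, fewer cells of a type and less RNA per cell cannot be told apart.

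A gene is said to have risen or fallen where its edgeR adjusted p over all genes tested was under 0.05. By this call 7268 genes (34.8%) rose and 7156 (34.3%) fell. Since so much of the transcriptome moved, a second call tested each fold against 2-fold rather than against no change, which 3313 genes (15.9%) met upward and 2487 (11.9%) downward. All 4 UV-C libraries stood above all 4 normal light libraries for 29.8% of genes and below them for 29.1%. The spread of folds was wider upward: the median log2 fold was 0.01, the 5th percentile -2.07 and the 95th percentile 3.84, and 623 genes exceeded a log2 fold of 5 against 38 below -5.

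Among the 15 largest rises, 10 genes had no count in any normal light library, so that only a lower limit of the fold can be given, set against a floor of 3 counts per library. FMO1, the enzyme that makes the defence signal N-hydroxypipecolate, had 0 CPM in all 4 normal light libraries and 214, 133, 189 and 127 CPM after UV-C. No control library held a count, and the gene was at least 542-fold higher after UV-C. AT3G13610, a dioxygenase of coumarin synthesis, was at least 210-fold higher, ARI12 of the ARIADNE ubiquitin ligases at least 169-fold, the ethylene response factor ERF1 at least 140-fold and the dehydrogenase gene SDR4 at least 120-fold. AT1G57650 reached at least 70.6-fold, the zinc finger gene AT3G53600 at least 58.6-fold and AT1G13310 at least 46-fold. AT3G21305 and the noncoding gene AT3G06325 also had no control count and were at least 209-fold and 123-fold higher. The mitochondrial small heat shock gene HSP23.6-MITO had 1 to 3 control counts in all, and its ratio was 3400 (95% counting interval 610 to 134000). The same held for AT5G37490, with a ratio of 2730 (95% counting interval 489 to 108000), and AT5G22540, with 2350 (95% counting interval 421 to 92800). UGT76B1, a glucosyltransferase that acts on salicylic and N-hydroxypipecolic acid, rose by 10.80 ± 0.66 on the log2 scale and AT3G48640 by 10.80 ± 0.49.

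The largest falls had a different make-up, for 8 of the 15 were SAUR genes, small proteins that auxin induces and that drive cell expansion. The noncoding gene AT4G06665 and the root growth factor gene RGF6 had no count after UV-C and were at least 38-fold and 22.5-fold lower. SAUR29, with 1 to 3 counts in all after UV-C, was higher in normal light by a ratio of 358 (95% counting interval 63.8 to 14200). SAUR64, SAUR65, SAUR68 (AT1G29510), SAUR66, SAUR21 and SAUR62 had log2 folds between -6.91 and -5.32. AT5G42825 (-7.02 ± 0.90), the noncoding gene AT3G09275 (-5.38 ± 0.82) and the precursor of the microRNA miR167d (-5.28 ± 0.40), which targets auxin response factors, complete the 15 together with SAUR20, EXPA8 and GASA6, described below. The values of AT3G21305, AT3G06325, AT4G06665 and RGF6 rest on restored decimals in every library where they were detected.

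**Figure D1:**
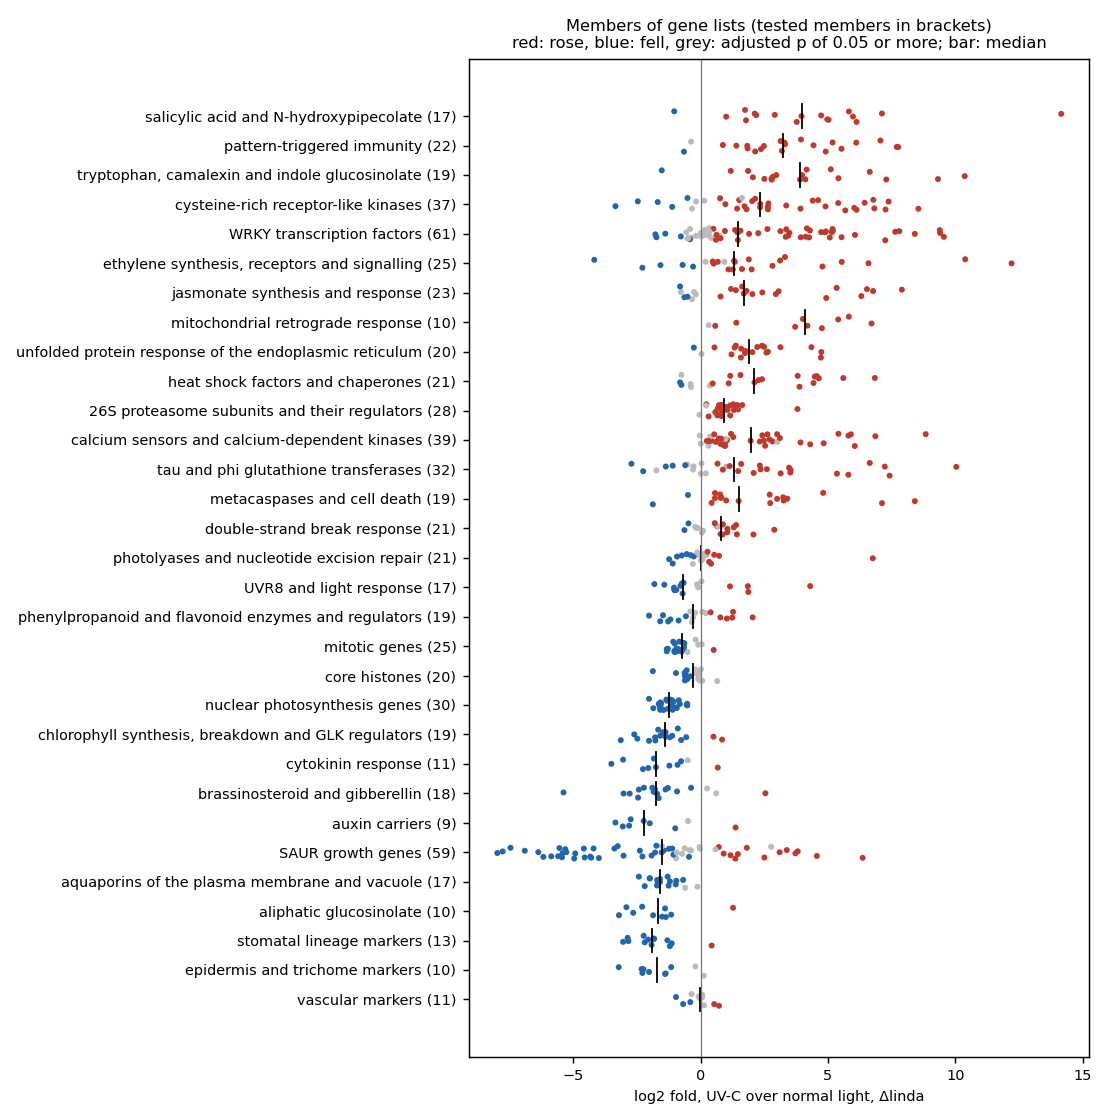
Log2 fold of UV-C over normal light in Δlinda (x axis) for each tested member of 31 gene lists (rows), with members that rose in red, that fell in blue and the others in grey, and the list median as a bar. Defence, mitochondrial and chaperone lists lie to the right, with medians of 3.96 for salicylic acid and 4.10 for mitochondrial retrograde genes, and growth, light and stomatal lists to the left. Genes with no count in a group are drawn at their fitted fold, which is not a bound.

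Genes of pattern-triggered immunity, which starts when surface receptors sense microbial or damage peptides, rose in 20 of 22 members and fell in 1, with 18 rises beyond 2-fold and a median log2 fold of 3.24. PROPEP3, the precursor of a danger peptide released from injured cells, had 0.151, 0.158, 0 and 0.239 CPM in normal light and 37.6, 31.1, 39 and 23.5 CPM after UV-C. The control libraries held 0 to 3 counts each, all irradiated libraries were far above them, and the fold was log2 7.76 ± 0.40, edgeR adjusted p = 1.7e-15. PEPR2, a receptor of related danger peptides, had 0.904, 2.37, 2.27 and 1.51 CPM in normal light and 55.2, 40.9, 50.9 and 74.6 CPM after UV-C, again without overlap (log2 4.91 ± 0.22, edgeR adjusted p = 1.1e-17). The kinase gene MPK11 rose by 7.70 ± 0.41, the related precursor PROPEP2 by 7.06 ± 0.51, and the transcription factor genes WRKY33 and WRKY53 by 5.18 ± 0.44 and 5.53 ± 0.32. The exception was FLS2, the receptor of bacterial flagellin, with 35.9, 28.2, 21.6 and 34.6 CPM in normal light and 25.2, 14.4, 18.3 and 17.9 CPM after UV-C. Its groups overlapped, and the fall was log2 -0.66 ± 0.29, edgeR adjusted p = 0.048, just inside the threshold. This call was lost in 11 of 16 alternative settings.

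WRKY factors bind the W-box, whose core was searched as TTGAC on both strands in the 250 bases before each gene start. The promoters of PROPEP3, PEPR2 and FLS2 are shown because they hold 4, 2 and 1 W-boxes and moved in different directions. Sequences are from RefSeq, build TAIR10.1, plus strand, and capitals mark the W-box.
PROPEP3 (chr5:25939312-25939561): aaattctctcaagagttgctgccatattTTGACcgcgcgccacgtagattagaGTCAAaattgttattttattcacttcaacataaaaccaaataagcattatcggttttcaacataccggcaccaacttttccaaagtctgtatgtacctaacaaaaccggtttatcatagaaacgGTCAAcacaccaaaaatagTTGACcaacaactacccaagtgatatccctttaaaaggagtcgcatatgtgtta
PEPR2 (chr1:6106073-6106322): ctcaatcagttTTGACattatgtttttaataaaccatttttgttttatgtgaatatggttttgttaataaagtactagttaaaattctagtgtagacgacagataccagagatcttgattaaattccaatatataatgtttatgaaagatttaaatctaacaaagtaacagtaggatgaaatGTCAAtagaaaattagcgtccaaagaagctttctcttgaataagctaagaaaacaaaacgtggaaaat
FLS2 (chr5:18791325-18791574): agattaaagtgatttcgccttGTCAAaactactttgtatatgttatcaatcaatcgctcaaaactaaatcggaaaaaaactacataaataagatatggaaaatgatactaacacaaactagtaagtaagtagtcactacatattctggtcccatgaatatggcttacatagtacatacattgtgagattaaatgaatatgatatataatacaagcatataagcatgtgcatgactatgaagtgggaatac
The 4 matches of PROPEP3 begin 54 to 222 bases before the start, those of PEPR2 at 68 and 239 and that of FLS2 at 229. The core stands in 44.9% of all 27443 promoters, in 57.9% of those of genes that rose beyond 2-fold and in 38.8% of those that fell beyond 2-fold. In the immunity list 18 of 22 promoters hold it, the falling FLS2 among them. Other lists of mostly rising genes varied, with 10 of 14 mitochondrial retrograde, 10 of 20 salicylic acid and 21 of 48 calcium promoters. A match of letters is no evidence of binding.

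Salicylic acid genes moved in the same direction, with 16 of 17 tested members rising, 15 beyond 2-fold, and a median of 3.96. ICS1, the isochorismate synthase at the entry of the pathway, had 25.6, 21.4, 28 and 30.4 CPM in normal light and 484, 338, 492 and 331 CPM after UV-C. The groups were far apart (log2 3.96 ± 0.16, edgeR adjusted p = 1e-18). The exporter EDS5 and the conjugating enzyme PBS3, which carry the next steps, rose by 6.12 ± 0.27 and 5.82 ± 0.35, the regulator SARD1 by 5.98 ± 0.37 and the immune lipase-like gene EDS1 by 3.77 ± 0.14. EPS1, which cleaves the PBS3 product into salicylic acid, fell, with a log2 fold of -1.04 ± 0.26.

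Indole-derived defence compounds followed. In the list of tryptophan, camalexin and indole glucosinolate genes 18 of 19 members rose, 17 beyond 2-fold, with a median of 3.90. PAD3, the last enzyme of camalexin synthesis, had 0.151, 4.03, 0.591 and 1.43 CPM in normal light and 3110, 2270, 2250 and 1630 CPM after UV-C. The control libraries differed among themselves but all lay far below every irradiated library (log2 10.37 ± 0.49, edgeR adjusted p = 8.1e-16). The earlier cytochrome gene CYP71A12 rose by 7.29 ± 0.58 and the regulator MYB51 by 5.41 ± 0.30, while MYB34, a related regulator, fell (-1.53 ± 0.30). Another regulator, MYB122, had 1 control count in all and a ratio of 875 (95% counting interval 157 to 34600). Aliphatic glucosinolates come from methionine, and their genes went the other way: 9 of 10 fell, 7 beyond 2-fold, with a median of -1.70. Their regulators MYB28 and MYB29 fell from 132 ± 10.2 to 17.5 ± 3.22 CPM (SD, n = 4 each) and from 64.2 ± 9.68 to 10.2 ± 2.99 CPM (SD, n = 4 each) (-2.92 ± 0.17 and -2.65 ± 0.20).

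Several families of receptors and regulators tied to defence held more rises than falls. Of 37 cysteine-rich receptor-like kinases 28 rose and 5 fell (median 2.34, and 2.33 with genes at 0 set to their limit), from CRK36 at 8.55 ± 0.53 to CRK30 at -3.35 ± 0.47. Of 61 WRKY genes 39 rose and 5 fell (median 1.46, or 1.35 at the limit), with WRKY51 at 9.55 ± 0.37 and WRKY3 at -1.78 ± 0.12. NAC factors rose in 42 and fell in 9 of 79 (1.09, or 0.90 at the limit), among the rises the longevity regulator JUB1 (7.51 ± 0.45). U-box ubiquitin ligases rose in 15 and fell in 1 of 21 (median 1.07). PUB54 of this family had few control counts in all and a ratio of 269 (95% counting interval 91.6 to 1310), and PUB24, which dampens immune signalling, rose by 5.18 ± 0.23.

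Ethylene genes rose more often than they fell. ACS6, which makes the ethylene precursor, had 13, 11.4, 10.9 and 17.2 CPM in normal light and 671, 615, 644 and 525 CPM after UV-C, with no overlap (log2 5.54 ± 0.24, edgeR adjusted p = 7.8e-18). Its relative ACS2 rose by 10.39 ± 0.40. Within the same gene family ACS4 and ACS8 fell (log2 -4.18 and -2.29), and ACS11 was not called. Of 25 ethylene genes in all, 18 rose and 5 fell, with a median of 1.31. EIL1, a master transcription factor of the ethylene response, was among the falls (-1.58 ± 0.14), while its relative EIN3 rose (log2 0.47). ERF1, a target of EIL1, had 0 CPM in all 4 normal light libraries and 38.5, 48, 49.2 and 35.6 CPM after UV-C. The ERF family rose in 16 and fell in 2 of 24 members (median 2.03, or 1.81 at the limit).

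Of 23 jasmonate genes 16 rose and 3 fell (median 1.69, or 1.63 at the limit). JAZ1, a repressor that jasmonate both destroys and induces, had 5.42, 7.98, 4.04 and 3.34 CPM in normal light and 447, 407, 407 and 394 CPM after UV-C. Irradiated libraries were within 394 to 447 CPM of each other, and the fold was log2 6.31 ± 0.24, edgeR adjusted p = 5.6e-19. AOC3, an enzyme of jasmonate synthesis, rose by 7.90 ± 0.38, but AOS, which acts a step earlier, fell by a narrow margin, with overlapping groups and a call lost in 11 of 16 alternative settings (log2 -0.81 ± 0.35, edgeR adjusted p = 0.046).

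Nuclear genes that answer to failing mitochondria rose in 9 of 10 tested members, 8 of them beyond 2-fold, with a median of 4.10. OM66, a protein of the outer mitochondrial membrane, had 3.62, 4.74, 3.65 and 7.4 CPM in normal light and 528, 480, 514 and 555 CPM after UV-C (log2 6.71 ± 0.34, edgeR adjusted p = 1.5e-15). UPOX, a stress marker of mitochondria, had 4.97, 2.85, 3.65 and 3.66 CPM in normal light and 187, 242, 225 and 183 CPM after UV-C. The lowest irradiated library was 183 CPM against 4.97 at most in the controls (log2 5.82 ± 0.65, edgeR adjusted p = 2.4e-08). NDB2, an external NADH dehydrogenase that bypasses complex I, had 10.5, 9.01, 12.1 and 16.4 CPM in normal light and 607, 532, 487 and 414 CPM after UV-C (log2 5.40 ± 0.25, edgeR adjusted p = 4.6e-17). The internal dehydrogenase NDA1 had 108, 79.8, 131 and 104 CPM in normal light and 131, 175, 165 and 156 CPM after UV-C. It moved far less, with 1 control library at the level of the lowest irradiated one (log2 0.57 ± 0.12, edgeR adjusted p = 0.00017). AOX1A, the alternative oxidase that bypasses the cytochrome chain, rose by 3.71 ± 0.30, and the membrane-bound regulators NAC013 and NAC017 by 4.76 ± 0.36 and 1.40 ± 0.10, while AOX1C had log2 0.31 ± 0.58, edgeR adjusted p = 0.66.

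NAC013 and NAC017 bind the mitochondrial dysfunction motif, searched as CTTG, 5 free bases and CANG on both strands. Promoters of 3 dehydrogenase and marker genes are shown since all hold the motif once and yet differ in fold. They are from RefSeq TAIR10.1, plus strand, with the motif in capitals.
NDB2 (chr4:2572177-2572426): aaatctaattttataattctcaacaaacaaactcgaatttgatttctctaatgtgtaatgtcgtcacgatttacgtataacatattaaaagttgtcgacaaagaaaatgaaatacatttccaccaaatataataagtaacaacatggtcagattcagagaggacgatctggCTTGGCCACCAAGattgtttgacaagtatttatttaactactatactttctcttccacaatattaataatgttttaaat
UPOX (chr2:9254128-9254377): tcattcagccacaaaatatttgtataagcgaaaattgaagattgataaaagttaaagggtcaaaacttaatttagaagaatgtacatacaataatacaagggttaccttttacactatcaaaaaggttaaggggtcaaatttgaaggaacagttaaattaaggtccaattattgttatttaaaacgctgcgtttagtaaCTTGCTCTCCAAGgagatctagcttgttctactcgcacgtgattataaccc
NDA1 (chr1:2203854-2204103): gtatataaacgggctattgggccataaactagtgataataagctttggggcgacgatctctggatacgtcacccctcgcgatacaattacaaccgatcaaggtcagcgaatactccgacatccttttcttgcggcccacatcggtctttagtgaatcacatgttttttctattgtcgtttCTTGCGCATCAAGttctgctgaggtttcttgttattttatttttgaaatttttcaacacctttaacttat
The motif begins 79 bases before the start of NDB2, 51 before UPOX and 70 before NDA1. It occurs in 5 of the 14 promoters of the list, in 1.75% of all promoters, in 2.72% of those of genes up beyond 2-fold and in 1.30% of those down beyond 2-fold.

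In the unfolded protein response, which the endoplasmic reticulum raises when folding fails, 18 of 20 tested members rose and 1 fell (median 1.89). BZIP60, its transcription factor, had 18.5, 18.4, 18.7 and 18.5 CPM in normal light and 444, 579, 538 and 426 CPM after UV-C (log2 4.74 ± 0.18, edgeR adjusted p = 4e-19). The 4 control values were nearly the same, and all 4 irradiated values lay far above them. The chaperone gene BIP2 rose by 3.13 ± 0.21, although it shares reads with near-identical BIP copies and is uncertain on its own, and HRD1A, a ligase that removes misfolded proteins, fell slightly (-0.27 ± 0.12, overlapping groups, a call lost in 11 of 16 alternative settings).

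Genes of heat shock factors and chaperones rose in 15 and fell in 2 of 21 (median 2.11). HSP90.1, the inducible chaperone, had 2.41, 8.06, 3.15 and 6.52 CPM in normal light and 690, 637, 630 and 464 CPM after UV-C (log2 6.84 ± 0.44, edgeR adjusted p = 4.5e-13), HSP70 rose by 5.60 ± 0.40 and the factor HSFB1 by 4.56 ± 0.18, whereas HSFA1B, a constitutive heat shock factor, fell (-0.76 ± 0.12). The heat shock element, searched as GAA, TTC and GAA with 2 free bases between each, stands in 4 of 23 promoters of the list and in 0.386% of all. Proteasome genes had smaller folds: 26 of 28 rose, 8 beyond 2-fold, with a median of 0.90. The subunit gene RPT3 rose by 1.63 ± 0.10, the segregase gene CDC48A by 1.44 ± 0.11, and NAC053, which switches on proteasome genes, by 3.80 ± 0.17.

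**Figure D2:**
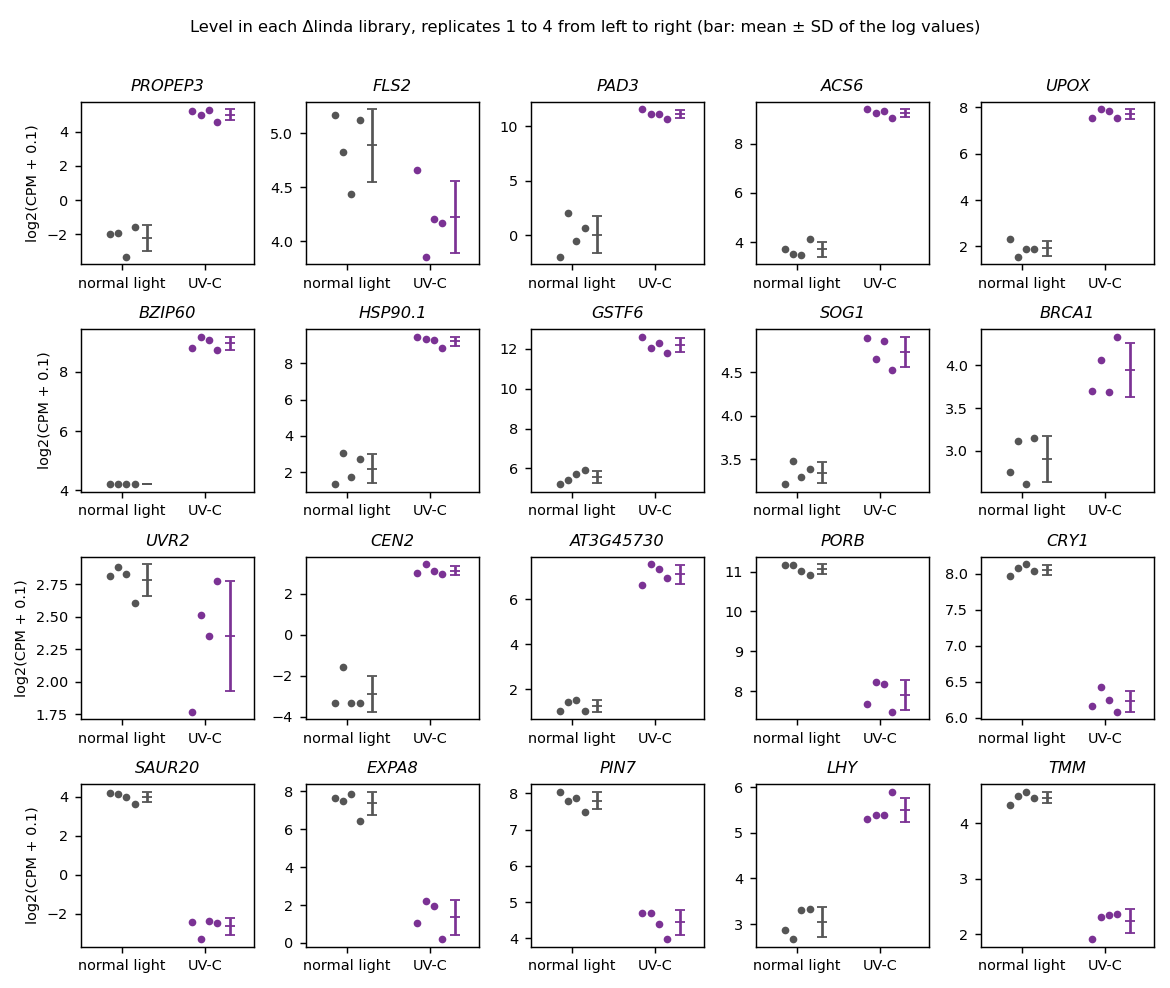
Level of 20 genes in each Δlinda library as log2(CPM + 0.1) (y axis, own scale per gene), with normal light and UV-C replicates 1 to 4 from left to right and bars for the mean ± SD of the log values. PROPEP3, PAD3, UPOX and BZIP60 have groups far apart, UVR2 and FLS2 have overlapping groups, and PORB, EXPA8, PIN7 and TMM lie lower in all 4 UV-C libraries.

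Genes of oxidative signalling rose in 9 and fell in 3 of 16 (median 1.73). The kinase gene OXI1, activated by hydrogen peroxide, had 0, 0.474, 0 and 0.795 CPM in normal light and 84.1, 104, 94.9 and 97.4 CPM after UV-C (log2 7.95 ± 0.47, edgeR adjusted p = 5.8e-14). The control libraries held next to nothing and the irradiated ones were close to each other. The zinc finger gene ZAT10 rose by 7.11 ± 0.44, and the catalase gene CAT3 fell, with overlapping groups (log2 -0.98 ± 0.30, edgeR adjusted p = 0.0049). Glutathione transferases, which conjugate toxic compounds, rose in 19 and fell in 5 of 32 (median 1.30). GSTF6 of this family, which also serves camalexin synthesis, had 36.8, 42.9, 51.8 and 60.5 CPM in normal light and 6290, 4260, 5030 and 3590 CPM after UV-C (log2 6.64 ± 0.32, edgeR adjusted p = 1.3e-16) and shares some reads with related copies. GSTU9 rose by 10.04 ± 0.31 and GSTU26 fell (-2.72 ± 0.32). UDP-glycosyltransferases split, with 22 up, 16 down and a median of 0.07 over 50 members (0.06 at the limit). Over all genes tested 34.8% rose and 34.3% fell.

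Calcium sensors and calcium-dependent kinases rose in 33 of 39 members, with a median of 1.96, or 1.28 at the limit. TCH3 (CML12), a calmodulin-like gene induced by touch, had 30.3, 23.3, 19.3 and 119 CPM in normal light and 3780, 2850, 3210 and 2970 CPM after UV-C. Normal light replicate 4 was far above the other controls, yet all irradiated libraries lay above it (log2 6.05 ± 0.63, edgeR adjusted p = 7.5e-09). CML37, induced by wounding, rose by 8.84 ± 0.56. The small list of touch and cold genes had 3 rises and 3 falls among 8, with the cold regulator DREB1A at -1.92 ± 0.45. These shares were near the 34.8% and 34.3% of all genes tested. Of 19 cell death genes 17 rose and 2 fell (median 1.49). The metacaspase MC8, which promotes cell death after UV-C in Arabidopsis, had 0.151, 0.791, 0.197 and 0.716 CPM in normal light and 69.1, 81.3, 75.7 and 66.9 CPM after UV-C (log2 7.12 ± 0.59, edgeR adjusted p = 7.8e-11). BAP2, which restrains cell death, rose by 8.41 ± 0.47 and LOL1, which promotes it, fell (-1.88 ± 0.34). Of 18 autophagy genes 10 rose and 1 fell (median 0.43), with opposite changes inside the ATG8 family that coats autophagosomes: ATG8H rose by 1.95 ± 0.26 and ATG8F fell (-1.55 ± 0.17). Energy starvation and senescence genes were divided, 7 up and 7 down of 15, beside 34.8% and 34.3% of all genes tested. They ranged from JUB1 to the sugar-repressed gene DIN10 (-2.16 ± 0.52).

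Genes that repair the lesions of UV-C had no common direction. Among 21 genes of photolyases and nucleotide excision repair 6 rose and 7 fell, beside 34.8% and 34.3% of all genes tested. The median was 0.01, the same as over all genes, so these counts do not set the list apart. UVR2, the photolyase of cyclobutane dimers, had 6.93, 7.27, 7 and 5.97 CPM in normal light and 3.31, 5.6, 5.01 and 6.73 CPM after UV-C. The groups overlapped and the fall was marginal (log2 -0.39 ± 0.18, edgeR adjusted p = 0.049), a call lost in 12 of 16 alternative settings. UVR3, the photolyase of the other main UV lesion, had 2.26, 2.69, 4.93 and 1.99 CPM in normal light and 1.33, 1.4, 1.39 and 2.08 CPM after UV-C and overlapped as well (log2 -0.93 ± 0.34, edgeR adjusted p = 0.015). Without normal light replicate 3, which held the highest value, it was -0.57 and no longer called. RAD4, which recognises lesions in the excision pathway, had 22, 20.3, 17.5 and 19.4 CPM in normal light and 9.11, 9.72, 7.42 and 10.7 CPM after UV-C, without overlap (log2 -1.10 ± 0.14, edgeR adjusted p = 3.1e-08). Its partner RAD23C fell (-1.24 ± 0.12), as did the damage-binding gene DDB2 (-0.55 ± 0.13), while the helicase gene XPB2, which shares reads with a copy, and the nuclease gene ERCC1 rose by 0.72 ± 0.13 and 0.53 ± 0.10. The large exception was CEN2, a centrin that works with RAD4, with 0, 0.237, 0 and 0 CPM in normal light and 7.95, 10.7, 8.44 and 7.61 CPM after UV-C. Only normal light replicate 2 held any control count, and the ratio was 122 (95% counting interval 41.3 to 592) (edgeR adjusted p = 4.2e-14). Translesion polymerases, which copy past dimers, fell in 3 of 5, and POLH, the one that reads thymine dimers correctly, had 8.74, 9.01, 8.28 and 9.23 CPM in normal light and 5.22, 4.28, 4.36 and 5.12 CPM after UV-C (log2 -0.89 ± 0.16, edgeR adjusted p = 9.8e-06).

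Genes of the double-strand break response rose in 12 and fell in 2 of 21 (median 0.78), with 4 rises beyond 2-fold. SOG1 had 9.19, 11.1, 9.76 and 10.4 CPM in normal light and 29.7, 25, 28.9 and 22.9 CPM after UV-C (log2 1.39 ± 0.13, edgeR adjusted p = 5.1e-11). Its relative NAC044, which relays the signal to the cell cycle, had 0.301, 1.26, 0.887 and 1.35 CPM in normal light and 6.38, 8.57, 7.23 and 8.65 CPM after UV-C (log2 2.89 ± 0.58, edgeR adjusted p = 9.1e-05). BRCA1, a recombination gene, had 6.63, 8.54, 6.01 and 8.75 CPM in normal light and 12.9, 16.6, 12.8 and 20.1 CPM after UV-C (log2 1.05 ± 0.24, edgeR adjusted p = 0.00031), with every irradiated library above every control. AGO2 rose by 2.07 ± 0.19, PARP2 by 1.42 ± 0.20 and XRI1 by 1.04 ± 0.18. The kinase gene ATM fell (-0.64 ± 0.14), as did PARP1 (-0.48 ± 0.19, overlapping, a call lost in 7 of 16 alternative settings). CYCB1;1, a cyclin that DNA breaks induce, had log2 0.09 ± 0.21, edgeR adjusted p = 0.73. For the cell cycle inhibitor SMR7 the decimals could not be placed; its deposited entries were 0, 1, 2 and 7 in normal light and 36, 95, 108 and 70 after UV-C, so that its groups did not overlap as deposited. The motif bound by SOG1, searched as CTT, 7 free bases and AAG, stands in 7 of 24 promoters of the list and in 9.71% of all. It is not particular to this list, with 4 of 14 promoters in the mitochondrial retrograde list and 5 of 20 in the salicylic acid list. The immunity list had it in 0 of 22.

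Zeocin, which breaks both DNA strands, gives a comparison within the same mutant. Zeocin seedlings and their mock controls stood for 3 h in liquid medium, with 80 µg/ml of the drug, so the medium differs from that of the UV-C plates. With 4 Zeocin and 3 mock libraries of Δlinda, Zeocin raised 493 genes (2.36%) and lowered 96 (0.46%). The responses themselves differed, tested as a difference of differences, for 5706 genes in which UV-C gave the higher fold (27.3%) and 5817 in which it gave the lower one (27.9%). In the break response list 16 of 21 members rose with Zeocin (median 3.51), and the UV-C fold was below the Zeocin fold for 16 members and above it for 2. BRCA1 differed by -3.82 ± 0.34 on the log2 scale (edgeR adjusted p = 2.6e-10), with a Zeocin fold of 4.86 ± 0.27. NAC044 differed by -2.53 ± 0.86 (edgeR adjusted p = 0.015), PARP1 had 3.32 ± 0.21 with Zeocin and CYCB1;1 3.51 ± 0.22. SOG1 was the reverse, with 0.24 ± 0.13 after Zeocin (edgeR adjusted p = 0.49) and a difference of 1.15 ± 0.18 in favour of UV-C (edgeR adjusted p = 3.6e-06). Of the 493 genes that Zeocin raised, UV-C raised 264, of which 152 beyond 2-fold, and lowered 89. Over all genes tested UV-C raised 34.8%, with 15.9% up beyond 2-fold, and lowered 34.3%. OXI1 and NAC053 rose with both treatments, by 3.35 ± 0.35 and 1.75 ± 0.17 with Zeocin.

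**Figure D3:**
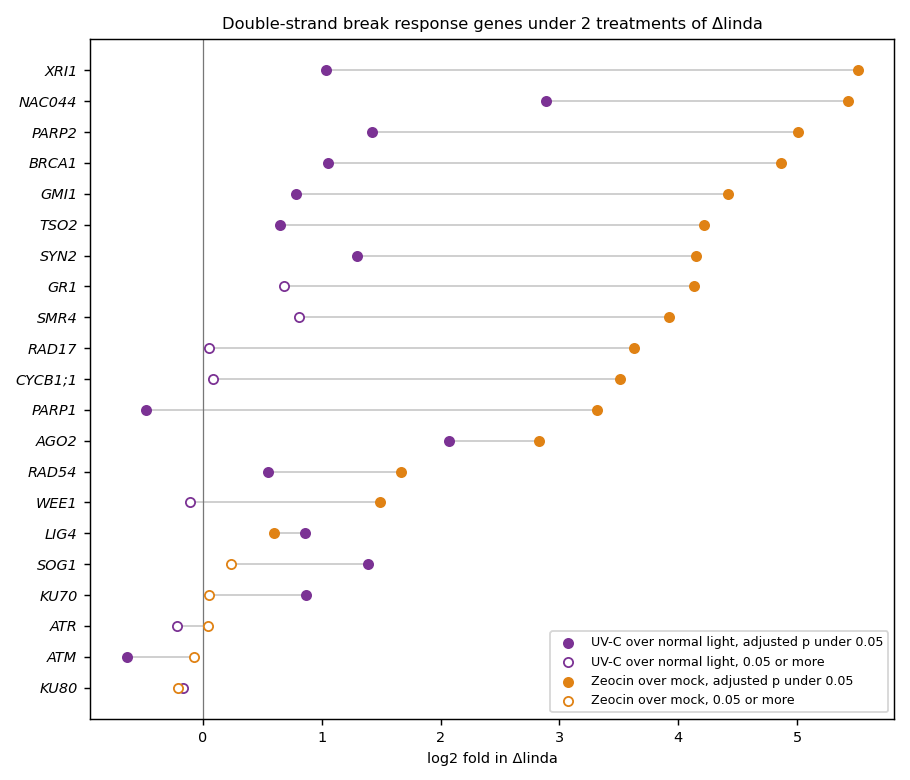
Log2 fold in Δlinda (x axis) of 21 tested genes of the double-strand break response (rows) after UV-C over normal light (purple) and after Zeocin over mock (orange), filled where the edgeR adjusted p is under 0.05. Most orange points lie to the right of the purple ones, with BRCA1 at 1.05 and 4.86, and SOG1, LIG4, KU70 and, by a small margin, KU80 show the opposite order.

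AT3G00800 (chr3:16788890-16789135 in TAIR10.1), annotated as a miscellaneous RNA, is taken as the LINDA locus from general knowledge of the study. Its decimals could not be placed, and its deposited entries were 0 in all 4 normal light libraries and 14, 25, 23 and 21 after UV-C. Since the sources used here do not give the deleted bases, these entries do not check the genotype. The protein-coding neighbour AT3G45730 (chr3:16789780-16790690) had 1.96, 2.61, 2.76 and 1.91 CPM in normal light and 98.2, 189, 162 and 123 CPM after UV-C (log2 5.94 ± 0.38, edgeR adjusted p = 3.1e-13). It also rose with Zeocin, by 4.94 ± 0.38, and the responses differed by 1.00 ± 0.49 (edgeR adjusted p = 0.089). The next gene, AT3G45740, had 12.2, 18.3, 15 and 19.5 CPM in normal light and 16.7, 13.8, 14.9 and 15.4 CPM after UV-C and overlapping groups (log2 -0.11 ± 0.12, edgeR adjusted p = 0.44).

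Mitotic genes fell modestly. Of 25 mitotic genes 20 fell and 1 rose, with a median of -0.75 and a lowest log2 fold of -1.33, shared at this rounding by CYCA2;3 and EDE1, whose groups overlapped. CYCB1;2, a cyclin of mitotic entry, had 17.2, 27, 25.3 and 22.3 CPM in normal light and 10.7, 9.47, 12.3 and 12.5 CPM after UV-C (log2 -1.04 ± 0.22, edgeR adjusted p = 0.0001). The exception MYB3R-1, a transcription factor of mitotic genes, rose by 0.51 ± 0.15 with overlapping groups. Zeocin lowered 7 of these 25. The MSA core, searched as AACGG, stands in 15 of 25 promoters of the list and 20.6% of all. DNA replication genes fell in 6 and rose in 1 of 17 (median -0.25), a share of falls near the 34.3% of all genes, with the G1 cyclin CYCD3;1 at -0.94 ± 0.15 and the licensing factor CDT1A at 0.42 ± 0.16, its groups overlapping and its call lost in 5 of 16 alternative settings. Core histone genes fell in 10 of 20 (median -0.32). Of 5 tested inhibitors of cyclin-dependent kinases 3 fell. KRP1, the largest of these falls, had 32.2, 22.7, 22.5 and 23.9 CPM in normal light and 2.07, 6.26, 2.6 and 1.84 CPM after UV-C (log2 -2.98 ± 0.28, edgeR adjusted p = 1.8e-10), with UV-C replicate 2 above the other irradiated libraries and still below all controls.

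Ribosomal protein genes barely moved, 4 up and 1 down of 25 (median 0.02), but RPL10C, a paralogue of the RPL10 family, had 118, 182, 162 and 222 CPM in normal light and 1020, 1120, 1030 and 776 CPM after UV-C (log2 2.52 ± 0.18, edgeR adjusted p = 2.7e-13). It shares reads with its relatives in all 8 libraries and is uncertain on its own. Ribosome biogenesis genes rose in 5 of 6 (median 0.80), among them NAC082, a regulator of the ribosomal stress response (1.78 ± 0.13), and the RNA-binding factor PUM24 (1.19 ± 0.21).

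Genes of UV-B and light perception mostly fell. Of 17 members 10 fell and 4 rose (median -0.71). CRY1, the blue light receptor cryptochrome 1, had 250, 270, 281 and 262 CPM in normal light and 71.6, 85.8, 75.6 and 67.9 CPM after UV-C (log2 -1.82 ± 0.11, edgeR adjusted p = 7.3e-15). HY5, the transcription factor that acts after UV-B perception, had 9.19, 5.45, 9.36 and 10.3 CPM in normal light and 4.31, 4.61, 3.43 and 4.24 CPM after UV-C (log2 -1.03 ± 0.22, edgeR adjusted p = 0.00014), while its homologue HYH rose by 1.87 ± 0.21 and the chloroplast protector ELIP2 by 4.30 ± 0.50. The UV-B receptor gene UVR8, its partner COP1 and the repressor RUP2 fell (-0.74 ± 0.09, -0.71 ± 0.09 and -1.03 ± 0.27, with overlapping groups for RUP2). Flavonoids screen ultraviolet light. Their genes had 6 rises and 7 falls of 19 (median -0.30), shares near the 34.8% and 34.3% of all genes tested. PAL1, the entry enzyme of phenylpropanoids, rose by 2.04 ± 0.16, whereas the flavonol regulators MYB12 and MYB111 and the flavonol synthase FLS1 fell (-2.03 ± 0.51, -1.59 ± 0.40 and -1.28 ± 0.26, with overlapping groups for MYB12).

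All 30 tested nuclear photosynthesis genes fell, 13 beyond 2-fold, with a median of -1.23. LHCB4.2, a light-harvesting protein of photosystem II, had 4080, 3120, 4390 and 2590 CPM in normal light and 796, 1090, 1270 and 736 CPM after UV-C (log2 -1.86 ± 0.20, edgeR adjusted p = 1.1e-09). Among the smallest falls were those of PETC, an iron-sulphur protein of electron transport (-0.53 ± 0.16, overlapping groups), and RBCS1A, the small subunit of Rubisco (-0.55 ± 0.14), which shares reads with other RBCS copies. Chlorophyll genes fell in 17 and rose in 2 of 19 (median -1.41). PORB, which makes chlorophyllide in light, had 2280, 2310, 2080 and 1940 CPM in normal light and 206, 303, 291 and 179 CPM after UV-C (log2 -3.14 ± 0.36, edgeR adjusted p = 2.5e-08). The regulator GLK2 and the synthesis activator GUN4 fell (-2.61 ± 0.13 and -2.49 ± 0.16). Breakdown genes went both ways: NYE1 (0.84 ± 0.16) and PPH (0.50 ± 0.14) were the rises, while NYC1 (-1.21) and PAO (-0.57) fell. The I-box, GATAAG, stands in 10 of 31 promoters of the photosynthesis list and 12.3% of all. Green leaf markers fell in 5 of 5, but RBCS1A, RCA, LHCB3 and GAPA are already counted in the photosynthesis list. Only CA1 (-1.13) was not.

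The SAUR genes of cell expansion numbered 79, of which 59 were tested, 7 were unclear in their decimals and 13 had too few counts. Of those tested 35 fell and 13 rose, 28 and 8 beyond 2-fold, with a median of -1.53. SAUR20 had 18.4, 17.5, 15.8 and 12.1 CPM in normal light and 0.0829, 0, 0.0927 and 0.0801 CPM after UV-C. With 1 to 3 counts in all after UV-C, normal light was higher by a ratio of 247 (95% counting interval 84.2 to 1200) (edgeR adjusted p = 2.7e-15). Members that rose included SAUR72 (3.72 ± 0.24) and SAUR48, whose controls held 1 to 3 counts in all (ratio 115 (95% counting interval 20.3 to 4580)). Expansins and xyloglucan endotransglucosylases, which loosen and remodel walls, fell in 26 and rose in 8 of 39 tested members of 59 (median -1.22). EXPA8 had 200, 181, 228 and 87.6 CPM in normal light and 1.99, 4.53, 3.71 and 1.04 CPM after UV-C (log2 -5.95 ± 0.43, edgeR adjusted p = 5.7e-12), and every irradiated library was under 5 CPM. XTH18 rose, by 7.24 ± 0.48.

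Auxin transport and response genes followed the SAUR genes. Auxin carriers fell in 7 of 9 (median -2.24). PIN7, an efflux carrier, had 265, 223, 234 and 181 CPM in normal light and 25.9, 26.1, 21 and 15.6 CPM after UV-C (log2 -3.35 ± 0.22, edgeR adjusted p = 5.7e-14), and the influx carrier AUX1 fell (-3.06 ± 0.17). PID, the kinase that directs PIN proteins in the cell, rose by 1.37 ± 0.24. Aux/IAA repressors fell in 14 and rose in 5 of 25 (median -1.12), with IAA14 at -2.99 ± 0.26 and IAA10 at 2.77 ± 0.16. Aquaporins fell in 15 of 17 (median -1.60), with PIP1;5 at -2.43 ± 0.14.

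Other growth hormones changed likewise. Brassinosteroid and gibberellin genes fell in 15 and rose in 1 of 18 (median -1.76). GASA6, a gibberellin-induced peptide, had 206, 264, 147 and 149 CPM in normal light and 4.89, 4.53, 5.47 and 3.44 CPM after UV-C (log2 -5.39 ± 0.33, edgeR adjusted p = 1.1e-13). The synthesis enzyme GA3OX1 fell (-2.79 ± 0.34) and the gibberellin receptor gene GID1B was the rise (2.54 ± 0.20). Cytokinin genes fell in 9 and rose in 1 of 11 (median -1.76), with the response regulators ARR6 at -3.51 ± 0.35 and ARR5 at 0.67 ± 0.28, the latter with overlapping groups and a call lost in 6 of 16 alternative settings. Phytochrome-interacting factors and related genes fell in 6 of 8, among them PIF4, which promotes elongation (-2.45 ± 0.19), and its inhibitor HFR1 (-4.33 ± 0.48). Abscisic acid genes were mixed, with 8 rises and 6 falls of 20 (median -0.17), shares near the 34.8% and 34.3% of all genes tested. The rises included the synthesis gene NCED3 (2.99 ± 0.37) and the phosphatase gene HAI1 (4.16 ± 0.70).

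Clock genes fell in 10 and rose in 3 of 20 (median -0.42). LHY, which peaks near dawn, had 7.23, 6.25, 9.76 and 9.94 CPM in normal light and 39.5, 41.8, 42.1 and 59.6 CPM after UV-C (log2 2.46 ± 0.24, edgeR adjusted p = 7.1e-10), with UV-C replicate 4 above the other irradiated libraries. TOC1, an evening gene, rose by 0.95 ± 0.17, while the evening gene GI and CHE, a repressor of the morning gene CCA1, fell (-1.58 ± 0.15 and -1.89 ± 0.17). The evening element, AAAATATCT, stands in 5 of 21 promoters of the list and 2.36% of all. The sources used here do not give the harvest hour, and its part in the clock values was not tested.

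Markers of seedling parts did not move as one. Stomatal lineage markers fell in 12 of 13 (median -1.93). TMM, a receptor of stomatal precursors, had 20, 22.3, 23.6 and 21.7 CPM in normal light and 3.65, 4.86, 5.01 and 5.04 CPM after UV-C (log2 -2.24 ± 0.17, edgeR adjusted p = 5.5e-13). SPCH and MUTE, which start and advance the lineage, fell (-1.83 ± 0.24 and -2.87 ± 0.49), and the broadly expressed ICE1 rose by 0.43 ± 0.11. Epidermis and trichome markers fell in 8 of 10 (median -1.71), with the epidermal identity genes PDF2 and ATML1 at -2.29 ± 0.12 and -2.25 ± 0.14. Vascular markers rose in 2 and fell in 3 of 11 (median -0.03), with the phloem sucrose carrier SUC2 at -0.41 ± 0.13. Both shares were below the 34.8% and 34.3% of all genes tested. Of 19 root markers 10 were unclear in their decimals, and 2 of the 9 tested fell, SCR (-1.18 ± 0.12) and WER (-2.47 ± 0.75). Of 4 seed markers none could be tested, for 3 were unclear and 1 had too few counts. Summed over the list, the stomatal markers held 155 to 206 CPM in normal light and 108 to 116 CPM after UV-C. This sum includes the broadly expressed, rising ICE1, so it is not a measure of the lineage alone. The epidermal markers held 792 to 880 and 206 to 246 CPM, and the vascular ones 319 to 351 and 247 to 324 CPM. The root sums were 53.2 to 60.6 and 27.0 to 42.8 CPM, and no tested marker of these lists was at 0 in a whole group. Their part in the falls of growth and light genes was not tested.

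Organelle transcripts took a larger share of the irradiated libraries. Chloroplast-encoded genes held 0.0827%, 0.0738%, 0.224% and 0.0561% of counts in normal light and 0.497%, 0.464%, 0.713% and 0.677% after UV-C. The groups did not overlap, with means of 0.109% ± 0.0774 and 0.588% ± 0.125 (SD, n = 4 each; exact two-sided permutation test, p = 0.0286, the smallest that 4 against 4 allows). Of 89 tested chloroplast genes 77 rose and 2 fell (median 2.29), and of 25 mitochondrial genes 18 rose (median 1.93). The difference of means was 0.478 percentage points, 0.148 with decimals placed without the groups. With genes of unclear decimals put back, the chloroplast share was 0.862% and 2.10%. AT3G06365, a miscellaneous RNA next to the ribosomal RNA gene AT3G41768 on chromosome 3, had 10200, 5560, 2670 and 6660 CPM in normal light and 41700, 40800, 70500 and 58500 CPM after UV-C (log2 3.08 ± 0.45, edgeR adjusted p = 1.2e-06). It held 0.542% ± 0.271 of counts in normal light and 4.68% ± 1.15 after UV-C (exact two-sided permutation test, p = 0.0286, n = 4 each). The sources used here do not say whether polyadenylated RNA was selected. Normal light replicate 3 had the highest chloroplast and mitochondrial shares of the controls. With organelle and ribosomal RNA genes left out before scaling, 5686 genes passed the 2-fold call, of which 5645 were among the 5800 reported.

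**Figure D4:**
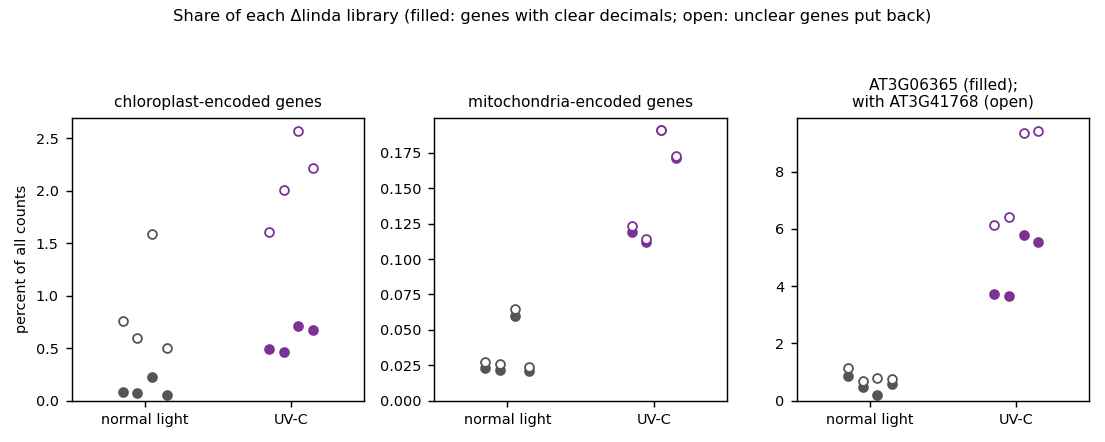
Share of all counts (y axis, percent) per Δlinda library held by chloroplast-encoded genes, mitochondria-encoded genes and AT3G06365 (filled), and with genes of unclear decimals put back (open; for the right panel with AT3G41768 added). In each panel the 4 UV-C libraries lie above the 4 normal light libraries, at 0.464% to 0.713% against 0.0561% to 0.224% for the filled chloroplast points.

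Other noncoding classes differed in their medians. Small nucleolar RNAs, which guide ribosomal RNA modification, rose in 33 and fell in 1 of 54 (median 1.15). Miscellaneous RNAs rose in 52 and fell in 19 of 108 (median 1.02). Long noncoding RNAs rose in 81 and fell in 96 of 342 (median -0.17), both below the 34.8% and 34.3% of all genes tested. Transposable element loci rose in 42 and fell in 27 of 133 (median 0.34), also below these shares. Strand is not given for the libraries, so that antisense and overlapping genes cannot be told apart.

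Calls differed by gene structure. Genes of 1 exon changed beyond 2-fold most often, with 22.8% up and 15.9% down of 2715. Genes of 2 to 5 exons had 17.1% up and 13.4% down of 8418, and genes of over 5 exons 11.5% and 9.61% of 8648. By coding length the shift was smaller, with a median log2 fold of 0.11 in the shortest 3964 genes and -0.07 in the longest 3946. These are descriptions, and neither exon number nor length was separated from gene function. The CAMTA core CGCGT, bound by calmodulin-dependent factors, stands in 6.87% of all promoters, 10.3% of those up and 5.90% of those down beyond 2-fold.

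The wild type gives the test of whether the response depends on the mutation. In Col-0, UV-C moved 3423 genes up (16.4%) and 2716 down (13.0%) beyond 2-fold. Of the 5800 genes called in Δlinda 5085 were also called in Col-0, which is 87.7% of the Δlinda calls and 82.8% of the 6139 Col-0 calls, and all 5085 had the same direction. The interaction, the difference between the responses of the genotypes, was called for 4 genes (0.0192%), while 1579 had an unadjusted p under 0.05. The count was 15 without normal light Col-0 replicate 2, 28 by DESeq2 and 0 in the edgeR fit of the 15481 genes with no restored decimal, of which 1192 had an unadjusted p under 0.05. The median absolute interaction over all genes was 0.22, with a median approximate standard error of 0.25 on the log2 scale.

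AT1G65240 is the one of these 4 genes with no restored decimal in the 8 Δlinda libraries. It rose from 1.23 ± 0.388 to 5.33 ± 1.45 CPM (SD, n = 4 each) in Δlinda and from 0.209 ± 0.214 to 7.25 ± 1.62 CPM (n = 4 each) in Col-0, an interaction of -3.06 ± 0.55 (edgeR adjusted p = 0.024). The call was not stable. The edgeR adjusted p was 0.072 among genes with no restored decimal in the 8 Δlinda libraries and 0.18 with only the groups compared. By DESeq2 the adjusted p was 0.00066. AT5G19940 and AT5G19950, which overlap on chromosome 5, had interactions of 3.50 ± 0.18 and 3.11 ± 0.27. Their estimates in Col-0 add up to whole numbers only if they are 10 times higher than placed, so the Col-0 values, and with them the calls, may be misread. The histone gene HTB9 (-3.20 ± 0.17) shares reads with related genes, and its normal light Col-0 level of 11.5 CPM stands far below the 68.4 CPM after UV-C there and the 126 CPM in normal light Δlinda. When decimals were placed without the groups, AT5G19940, AT5G19950 and HTB9 were left out as unclear. No contradiction of this kind occurred in the 8 Δlinda libraries among the 898 neighbouring pairs examined. These pairs were picked because most of their placed estimates already added up to whole numbers, so the check cannot clear the placement. Of 1304 entries not used to pick them, over all 30 libraries, 1110 added up to whole numbers.

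**Figure D5:**
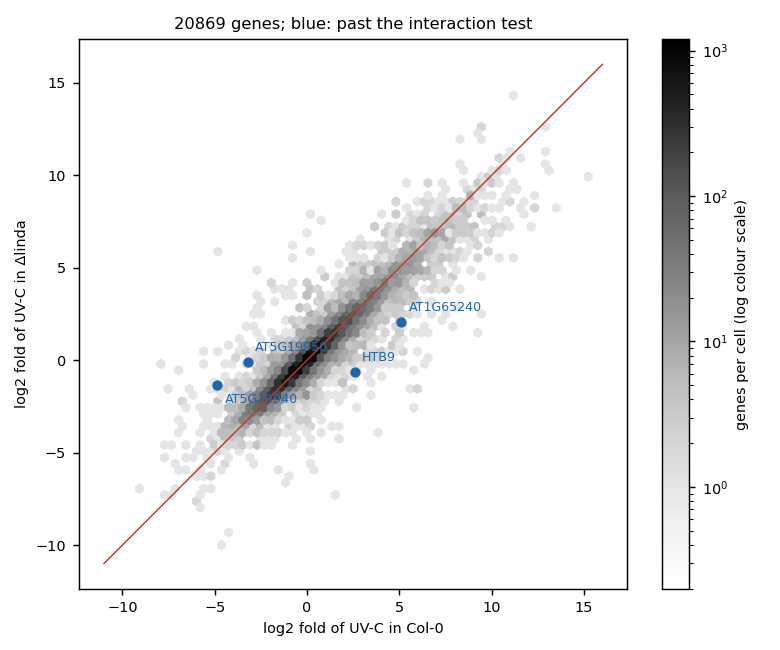
Log2 fold of UV-C over normal light in Col-0 (x axis) and in Δlinda (y axis) for 20869 genes, shaded by the number of genes per cell on a log scale, with the line of equal folds in red. The 4 genes called for the interaction are in blue, of which AT5G19940, AT5G19950 and HTB9 rest on doubtful Col-0 decimals.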

How the data were processed

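The submitters' processing notes name Trimmomatic 0.38.0, Salmon 0.14.1.2 and FastQC 0.72 for these RNA-seq libraries of whole seedlings. The deposited values are estimated counts per gene written without their decimal marks, so that an estimate with decimals reads many times too high. Decimal marks were put back from the gene's other libraries, those of the same group most, in 114282 (15.79%) of 723692 entries above 0, which may understate spread and changes. The 6524 genes with unclear entries were left out. In a simulation, which may be easier than the real table, 0.045% of the genes kept held a wrong entry.

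Restored counts were rounded, filtered (filterByExpr, minimum 10) and scaled by TMM. All 30 libraries were fitted at once with edgeR 4.0.16 (quasi-likelihood, robust, glmTreat for 2-fold), and calls used a Benjamini-Hochberg adjusted p under 0.05. The ± of a log2 fold is an approximate standard error, the size of the fold divided by the square root of its F statistic. It can be too small where a group holds few counts. For PROPEP3 it was 0.40 in Δlinda and 0.58 in Col-0, but 1.6 for the difference between them. CPM are given as mean ± SD. On simulated counts the fit recovered 74% of genes changed by 1 and 98% of those changed by 2 on the log2 scale. False calls numbered 12, which was 6.12% of the calls. The simulation changed 50 of 20307 genes at each size and gave all genes the same spread. Far more genes moved in the real comparison, so its power and scaling are not shown by this. Alternatives included DESeq2 1.42.0.

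The genes named are the 15 largest rises and falls (at least 5 CPM in the higher group, groups not overlapping), the list members with the 5 largest folds or a call against the list median, genes called for the interaction, and UVR2, UVR3, SOG1, SMR7, BRCA1, AT3G00800 and its neighbours. Others, such as ICS1, PEPR2, WRKY33, NDA1 and HY5, were added for their roles after their values were seen. Not every list member that met these rules is named. A gene of the break response list is not reported here. The members and lists were chosen with earlier results of these data known. Symbols, coordinates and promoters are from RefSeq TAIR10.1 (37379 of 37379 nuclear identifiers matched), while the authors' build was not given in the sources used here. Counting intervals and floors cover counting error only.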

Additional observations from a re-analysis of the deposited data

Results flagged for a closer look

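Within groups of 4 libraries, 9 of 90 groups examined had a library apart from the other 3 (a gap to its neighbour above Dixon's critical share of the group's range), where chance gives about 1 in 20. Among genes, these were CEN2 in normal light replicate 2 at 0.237 CPM, the one control library with a count, and TCH3 in normal light replicate 4 at 119 CPM. KRP1 stood out in normal light replicate 1 at 32.2 CPM and in UV-C replicate 2 at 6.26 CPM. LHY stood out in UV-C replicate 4 at 59.6 CPM, TMM in UV-C replicate 1 at 3.65 CPM and SAUR20 in UV-C replicate 2 at 0 CPM. Normal light replicate 3 was apart in its chloroplast-encoded share, 0.224% of counts, and its mitochondria-encoded share, 0.0598%.

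The UV-C responses of Δlinda and Col-0 differed by edgeR's test of the interaction for AT1G65240 (-3.06 on the log2 scale, lower in Δlinda), HTB9 (AT3G45980, -3.20), AT5G19940 (3.50) and AT5G19950 (3.11). The adjusted p of AT1G65240 was 0.024, and 0.0025 to 0.13 when each library of the groups compared was left out in turn.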

How the results depend on the processing

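The counts of genes that UV-C changed in Δlinda stayed within 1.5 times the reported ones in every setting run. Beyond 2-fold, 5800 genes were reported, against 4688 by DESeq2 (4687 of them among the 5800), 4530 with decimals placed without the groups (4434 shared), 4431 with no restored decimal (4379 shared) and 5503 to 5802 without single UV-C or normal light libraries of Δlinda. The median log2 fold over all genes was 0.01, 0.049 with RLE factors and 0.067 with no composition factor. The differences in organelle share kept their direction and an exact p under 0.05 in every alternative run; the ribosomal RNA share had no value with decimals placed without the groups. Lists were less stable, with 70 of 159 counts and medians moved in at least 1 of 16 settings.

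The count of 4 interaction genes (2 higher, 2 lower) depended on the settings. DESeq2 gave 28, 14 higher and 14 lower. With decimals placed without groups it was 0, with 0 higher and 0 lower (1310 at an unadjusted p under 0.05), and the same 0, 0 and 0 among genes with no restored decimal (1192). The lower count was 1 with only the groups compared and also with the replicate block. Without single libraries, the totals ran from 3 to 15, the higher ones from 2 to 12 and the lower ones from 1 to 3, with the highest total without normal light Col-0 replicate 2. Leaving out genes whose sum with a neighbour contradicts the placement, an alternative chosen after seeing the data, left 2, of which 0 higher.

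Of 153 single genes, 8 lost their call somewhere and 0 changed direction while called. AOS lost it without normal light replicate 1 or 3 or UV-C replicate 1, 3 or 4 (log2 -0.84 to -0.67), FLS2 without normal light replicate 1, 2 or 4 or UV-C replicate 2, 3 or 4 (-0.69 to -0.55) and UVR2 without normal light replicate 1, 2 or 3 or UV-C replicate 1 or 3 (-0.38 to -0.27). PARP1 lost it without normal light replicate 1, 2 or 4 or UV-C replicate 1, 2 or 3 (-0.47 to -0.42), HRD1A without normal light replicate 1 or 3 or UV-C replicate 3 or 4 (-0.25 to -0.19) and UVR3 without normal light replicate 3 (-0.57). ARR5 lost it without normal light replicate 1 or 3 or UV-C replicate 2, 3 or 4 (0.50 to 0.65), and CDT1A without normal light replicate 1 or 3 or UV-C replicate 1 or 4 (0.32 to 0.35).

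The labels do not say that replicate numbers pair the libraries. Deviations of same-numbered libraries correlated at 0.18, -0.06, 0.38 and 0.27, and normal light replicates 1, 3 and 4 correlated best with their own number. With the replicate block 5415 genes passed the 2-fold call (5205 shared), and UVR2 and UVR3 were not called. UVR2 was not called in the same groups without the block either. A limit to every value is the placement of decimals, since a gene misread in all libraries of a group keeps a false fold. At a depth of 7.83 to 14.16 M counts, genes of a few counts have only limits or wide ratios.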
